A study of Schizosaccharomyces pombe with 9 samples.

Results

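The genes described here are the 51 protein-coding genes of the cosmids SPAC212, SPAC977, SPAC869, SPAC186 and SPAC750, which lie near both ends of chromosome I of the fission yeast Schizosaccharomyces pombe. They were chosen by identifier alone from 5212 genes in the deposited tables. Of 53 rows with these prefixes, the flocculin genes pfl6 and pfl9 were left out by their symbols. The first end holds 24 of the genes, 8 of SPAC212 at the very end and 16 of SPAC977 inside it. The last end holds 27, which run from 11 of SPAC869 on the inner side through 8 of SPAC186 to 8 of SPAC750 at the very end.

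RNA was compared between 3 genotypes with 3 libraries each. The strain htb1-E112K clr6-1 (E112K clr6-1) combines the E112K substitution in htb1, the histone H2B gene, with the allele clr6-1 of clr6, which encodes a class I histone deacetylase. The strain htb1-E112K (E112K) carries the substitution alone, and WT carries neither. No clr6-1 strain without E112K was analysed here, and the labels give no growth conditions, no parent strain and no word on whether repeats were separate cultures. The p-values therefore measure only the spread between these libraries, which may be technical.

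In fission yeast the chromosome ends are packed into heterochromatin. Telomere-binding proteins such as Taz1 and Ccq1, the H3K9 methyltransferase Clr4, the reader Swi6 and histone deacetylases keep many end genes at low transcript levels, and a second condensed zone further inside depends on Set2 and Sgo2. The genes found there include species-specific membrane protein families, transporters and enzymes of nutrient use, and several families have near-identical copies at other chromosome ends.

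The libraries held 16469576 to 20013351 counts. Transcripts of htb1 stood at 5435 ± 119 CPM (counts scaled to the normalized library size) in E112K clr6-1, 5131 ± 127 CPM in E112K and 1669 ± 43.0 CPM in WT (SD, n = 3, as for every ± below). Transcripts of clr6 stood at 119 ± 1.47, 87.1 ± 1.77 and 142 ± 7.08 CPM in the same order. Neither level shows whether a library carries the point mutation. Repeats differed by more than counting noise (chi-square over degrees of freedom from 2.96 to 9.67 between pairs), and each was counted as 1 sample.

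The end genes took 0.486, 0.455 and 0.467% of all counts in the E112K clr6-1 libraries, 0.493, 0.476 and 0.488% in the E112K libraries, and 0.252, 0.260 and 0.256% in the WT libraries. All 6 mutant libraries lay above all WT libraries. In WT many of the genes were close to silent, with 20 of 51 under 1 CPM on average, 10 with at most 10 counts over all 3 libraries and 2 with none. Per length, the median end gene stood at 16.1 FPKM in E112K clr6-1, 20.9 FPKM in E112K and 3.64 FPKM in WT, against medians over all tested genes of 47.1, 47.4 and 47.9 FPKM. In WT 32 of the 51 genes lay among the lowest 10% of tested genes by FPKM, against 26 in E112K clr6-1 and 25 in E112K. In bulk RNA, fewer cells that express a gene and less RNA per cell cannot be told apart.

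Most of the end genes were higher in both mutant strains than in WT, and among genes with counts in WT the highest rises were in SPAC186 and SPAC869. Of the 51 genes, 47 had enough counts for edgeR's quasi-likelihood test. SPAC212.12, SPAC212.02, SPAC750.08c and SPAC750.07c did not. Another 12 genes passed the count filter without reaching its level in every WT library, so they could pass only through the mutant libraries, and the counts below describe the tested genes only.

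In E112K clr6-1 against WT, 33 of 47 rose, 12 fell and 2 did not pass at an adjusted p under 0.05. Over all tested genes 41.7% rose, 42.0% fell and 83.7% passed in either direction, so most genes of the tables passed. Of the 47 genes, 35 (74.5%) changed at least 2-fold, 27 upward and 8 downward, against 13.3% of all tested genes (10.1% upward and 3.24% downward). Their median log2 fold change was 1.51, while the median of all tested genes was near 0. The groups did not overlap for 44 of 47, against 84.8% of all tested genes.

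In E112K against WT, 32 of 47 rose, 11 fell and 4 did not pass, against 37.6% rising and 38.9% falling over all tested genes and 76.5% passing in either direction. Again 35 (74.5%) changed at least 2-fold, 28 upward and 7 downward, against 9.28% of all tested genes (7.17% upward and 2.11% downward). The median log2 fold change was 1.59, against -0.01 over all tested genes. The groups did not overlap for 42 of 47, against 78.0% of all tested genes. Both comparisons share the WT libraries.

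Between the mutant strains the picture was mixed. In E112K clr6-1 against E112K, 14 of 47 rose, 23 fell and 10 did not pass, against 40.2% rising and 38.6% falling over all tested genes. In either direction 78.7% of the end genes passed, against 78.8% of all tested genes, so the share was at the background. Changes of at least 2-fold were found for 17 (36.2%), 9 upward and 8 downward, against 7.31% of all tested genes (4.47% upward and 2.83% downward). The groups did not overlap for 37 of 47, against 80.5% of all tested genes. The median log2 fold change was -0.17, against 0.01 over all tested genes. The shares over all tested genes in these 3 comparisons are also the background for the counts by cosmid below.

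Counts are also given by the level in WT. Of the 31 genes at 1 CPM or more in WT, all of which were tested, 19 rose and 11 fell in E112K clr6-1 and 19 rose and 11 fell in E112K. Of the 16 tested genes under 1 CPM in WT, 14 rose and 1 fell in E112K clr6-1, and 13 rose and none fell in E112K by edgeR. Median log2 fold changes in E112K clr6-1 and E112K were 0.92 and 0.99 for the 31 genes, and 5.56 and 5.73 for the 16. The medians over all 47 tested genes thus lie above those of the genes at 1 CPM or more. A split on the WT level itself favours rises below it and falls above it, and 12 tested genes passed the count filter without reaching its level in every WT library, which also favours rises. The counts and medians are a description and carry no test.

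**Figure D1:**
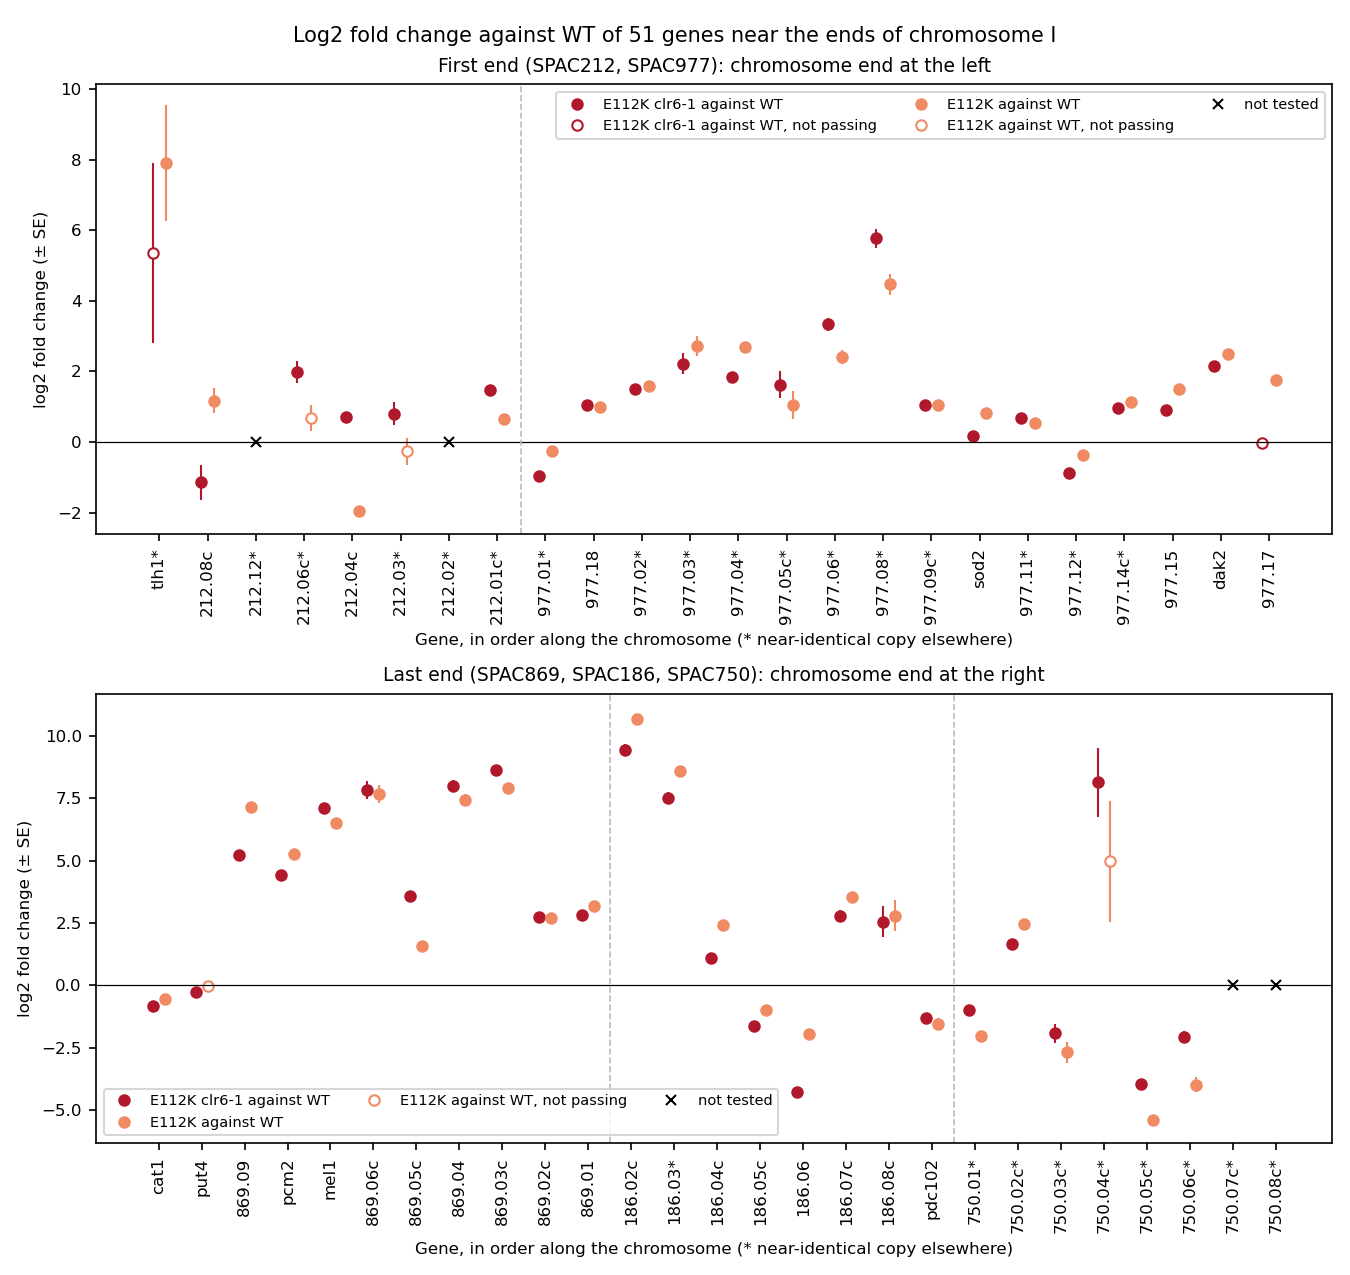
Log2 fold change against WT (± SE) of the 51 end genes in their order along the chromosome, for E112K clr6-1 (dark red) and E112K (orange), the first end above and the last end below. Filled points passed edgeR's test, open points did not, crosses were not tested, and stars mark near-identical copies elsewhere. With copies counted singly, the uninterrupted rises lie inside SPAC977 and from SPAC186.04c to SPAC869.09, while most points of SPAC750 lie below 0. The points of tlh1 and SPAC750.04c are fitted values against WT libraries without a count and are no measured size.

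Along the chromosome the rises formed runs. At the first end 10 successive end genes from SPAC977.18 to SPAC977.11 rose in both mutant strains, followed further inside by 3 from SPAC977.14c to dak2. At the last end 12 successive genes from SPAC186.04c to SPAC869.09 did so. Copies are counted singly in these runs, and runs over other genes were not counted. Summed with their near-identical copies, SPAC186.03 and SPAC977.11 fell in E112K clr6-1, each with a log2 fold change of -0.16. In E112K the sum with SPAC977.11 did not pass. The call of SPAC977.05c in E112K was lost when some single libraries were left out, as given below. The flocculin genes left out of the set lie inside these runs. Transcripts of pfl6 stood at 38.9 ± 3.24, 28.0 ± 1.63 and 7.57 ± 0.730 CPM, and those of pfl9 at 46.6 ± 0.152, 120.0 ± 4.50 and 8.52 ± 0.534 CPM, in E112K clr6-1, E112K and WT, and both rose in both mutants. The innermost genes of the last end, cat1 and put4, did not rise in either mutant. Counted singly, the outermost 8 genes differed between the ends, since 4 rose and 1 fell at the first end in E112K clr6-1, whereas 2 rose and 4 fell at the last end. In E112K these counts were 3 and 1 at the first end and 1 and 4 at the last end, with the remaining genes not passing or not tested. Over all tested genes 41.7% rose and 42.0% fell in E112K clr6-1, and 37.6% and 38.9% in E112K. Of the last-end falls, SPAC750.01, SPAC750.03c and SPAC750.06c rose as summed families in E112K clr6-1, by 0.89, 0.64 and 0.42 on the log2 scale. SPAC750.05c still fell. The difference between the ends therefore depends on how reads of copies were divided.

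The 11 genes of SPAC869 include some for transporters and enzymes of nitrogen, sulfur and sugar use. Of all 11 genes, 9 rose in both mutants, each by at least 2-fold. The summed level of the cosmid was 1793 ± 82.3 CPM in E112K clr6-1, 1248 ± 9.37 CPM in E112K and 517 ± 18.0 CPM in WT. None of these genes has a near-identical copy by the criterion used here.

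SPAC869.03c, a predicted urea transporter, had 73.4, 76.3 and 72.2 CPM in E112K clr6-1, 42.7, 47.1 and 43.2 CPM in E112K, and 0.201, 0.110 and 0.221 CPM in WT. All mutant libraries lay far above WT, where the 3 libraries held 4, 2 and 4 counts. The ratio of summed counts to WT was 416 in E112K clr6-1, with an exact 95% counting interval of 226 to 867, and 249 in E112K, with an interval of 135 to 520. By edgeR both rises passed (adjusted p = 7.68e-15 and 4.99e-14), and E112K clr6-1 exceeded E112K 1.67-fold (adjusted p = 3.38e-08). Counting intervals and bounds here cover counting error only. Its neighbour SPAC869.04, a formamidase-like protein gene, held 4 counts over all of WT and reached 20.04 ± 0.171 CPM in E112K clr6-1 and 13.4 ± 1.23 CPM in E112K. Those are ratios of 282 (interval 110 to 1036) and 189 (interval 73.7 to 697).

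The sulfate transporter gene sul2 (SPAC869.05c) was already expressed in WT and showed the highest rise of the cosmid between the mutant strains. It had 863, 711 and 721 CPM in E112K clr6-1, 209, 189 and 185 CPM in E112K, and 66.2, 60.8 and 67.0 CPM in WT. The 3 groups did not overlap and stood in the order E112K clr6-1, E112K, WT. By edgeR it rose 11.8-fold in E112K clr6-1 (adjusted p = 3.15e-13) and by 1.59 on the log2 scale in E112K (adjusted p = 9.82e-10) against WT, and 3.94-fold between the mutants (adjusted p = 6.57e-11).

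The nitric oxide dioxygenase gene yhb1 (SPAC869.02c), whose product detoxifies nitric oxide, rose in both mutants. It had 523, 526 and 546 CPM in E112K clr6-1, 514, 509.5 and 526 CPM in E112K, and 80.3, 76.6 and 83.7 CPM in WT. The mutant libraries overlapped each other and lay above all WT libraries. The rises were 6.63-fold and 6.44-fold (edgeR, adjusted p = 7.68e-15 and 7.95e-15), and the difference of 0.04 on the log2 scale between the mutants did not pass (SE 0.0336, adjusted p = 0.272).

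SPAC869.09, a conserved fungal gene, went the other way between the mutants. It had 8.25, 8.65 and 7.72 CPM in E112K clr6-1, 30.1, 31.1 and 32.9 CPM in E112K, and 0.201, 0.110 and 0.332 CPM in WT. E112K was highest in every library, and E112K clr6-1 lay between E112K and WT. Against WT the log2 fold changes were 5.22 in E112K clr6-1 and 7.15 in E112K (edgeR, adjusted p = 9.38e-11 and 7.11e-13), and it fell by 1.93 on the log2 scale in E112K clr6-1 against E112K (adjusted p = 5.93e-10).

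The remaining rises of SPAC869 included both low and moderate WT levels. The alpha-galactosidase gene mel1, whose product splits melibiose, stood at 81.4 ± 1.46, 53.7 ± 2.41 and 0.591 ± 0.161 CPM in E112K clr6-1, E112K and WT. The protein repair methyltransferase gene pcm2 stood at 29.3 ± 0.840, 52.5 ± 2.40 and 1.34 ± 0.284 CPM. The predicted amidase gene SPAC869.01 stood at 36.3 ± 0.504, 46.4 ± 2.07 and 5.19 ± 1.24 CPM. So mel1 was higher in E112K clr6-1 than in E112K, and pcm2 and SPAC869.01 were lower there, all 3 past the test. The HHE domain gene hry1 (SPAC869.06c) had 2 counts in all of WT and reached 9.56 ± 0.540 and 8.59 ± 0.834 CPM in E112K clr6-1 and E112K, ratios of 269 (interval 74.1 to 2228) and 241 (interval 66.4 to 1997).

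Both amino acid permease genes on the inner side of SPAC869 were well expressed in WT and did not rise. The cationic amino acid transporter gene cat1 had 137, 139 and 131 CPM in E112K clr6-1, 164, 171 and 171 CPM in E112K, and 249, 238 and 244 CPM in WT. No group overlapped another, and WT was highest. It fell by 0.85 on the log2 scale in E112K clr6-1 (edgeR, adjusted p = 5.42e-11) and by 0.53 in E112K (adjusted p = 7.10e-09) against WT. The proline permease gene put4 stood at 101 ± 0.699, 118 ± 3.94 and 121 ± 8.12 CPM in E112K clr6-1, E112K and WT, and fell by 0.26 in E112K clr6-1 (edgeR, adjusted p = 0.000141). Its log2 difference of -0.03 in E112K did not pass (SE 0.0443, adjusted p = 0.498).

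**Figure D2:**
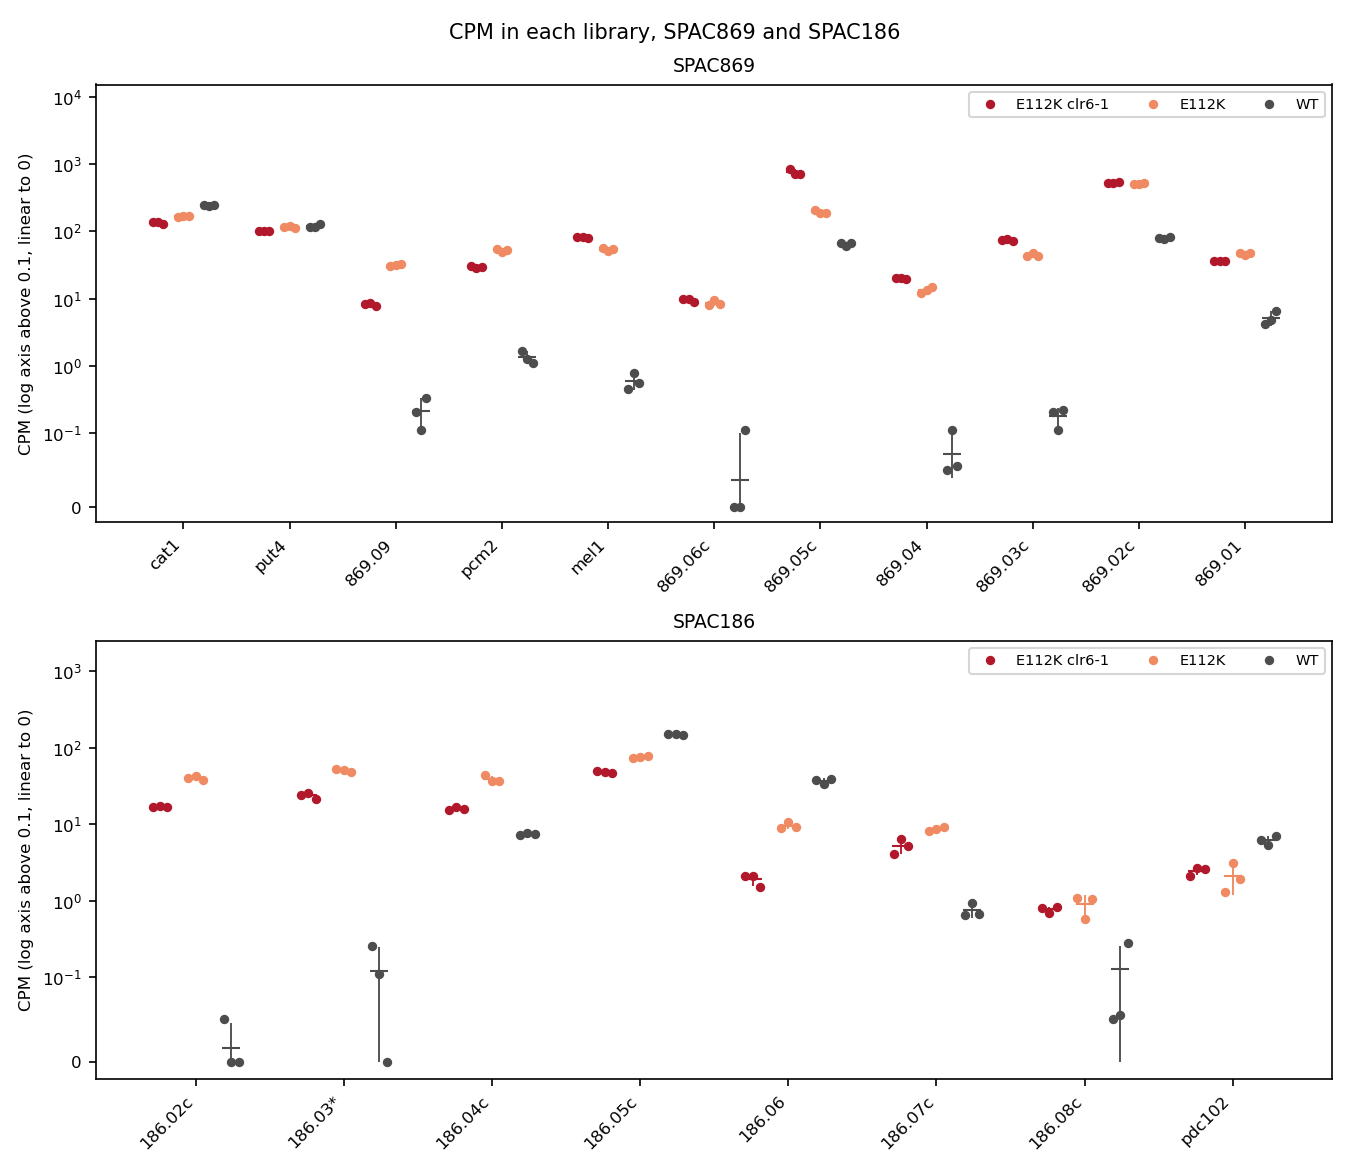
CPM of each gene of SPAC869 (above) and SPAC186 (below) in the 9 libraries, on an axis that is logarithmic above 0.1 and linear to 0, from the inner side at the left outward. Points are libraries, dashes with bars are means ± SD, and each gene shows E112K clr6-1, E112K and WT from left to right. In 9 genes of SPAC869 every mutant library lies above every WT library, and SPAC186.05c, SPAC186.06 and pdc102 lie below WT in both mutants.

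SPAC186 held the highest ratio and one of the deepest falls of the set. Of its 8 genes, 5 rose and 3 fell in each mutant against WT, and none rose in E112K clr6-1 against E112K, where 6 fell. Its summed level was 115 ± 4.58 CPM in E112K clr6-1, 227 ± 4.39 CPM in E112K and 202 ± 3.55 CPM in WT, so the sum hides opposite changes.

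SPAC186.02c, a predicted hydroxyacid dehydrogenase gene, had 338, 301 and 289 counts in E112K clr6-1, 655, 732 and 742 counts in E112K, and 1, 0 and 0 counts in WT. Every mutant library lay far above WT. The ratio of summed counts to WT was 951 in E112K clr6-1, with an exact counting interval of 170 to 37622, and 2257 in E112K, with an interval of 405 to 89182. The WT total of 1 count sets the width of these intervals. Between the mutants, where counts were ample, it stood at 16.9 ± 0.178 CPM in E112K clr6-1 and 40.2 ± 1.97 CPM in E112K a ratio of 0.421 (edgeR, adjusted p = 4.67e-09).

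SPAC186.03, a predicted L-asparaginase gene, rose alongside it, at 23.8 ± 2.12 CPM in E112K clr6-1, 50.6 ± 2.93 CPM in E112K and 0.120 ± 0.126 CPM in WT. Its near-identical copy at a chromosome II end, SPBPB21E7.09 (98.6% identity of the coding sequence), took 78.6% of the counts of the pair in E112K clr6-1, 76.0% in E112K and 99.9% in WT. The sum of both copies fell by 0.16 on the log2 scale in E112K clr6-1 (edgeR on the sums, adjusted p = 0.00144) and rose 1.70-fold in E112K (adjusted p = 3.66e-10).

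The other rises of SPAC186 were SPAC186.04c, a truncated channel gene, SPAC186.07c, a second hydroxyacid dehydrogenase gene, and SPAC186.08c, a predicted L-lactate dehydrogenase gene. SPAC186.04c stood at 15.9 ± 0.696, 39.3 ± 4.14 and 7.39 ± 0.220 CPM in E112K clr6-1, E112K and WT. SPAC186.07c stood at 5.25 ± 1.17, 8.65 ± 0.474 and 0.750 ± 0.158 CPM. SPAC186.08c stayed under 1 CPM on average in all 3 groups, at 0.765 ± 0.0715, 0.904 ± 0.284 and 0.127 ± 0.130 CPM, and its rise rests on 7 counts in WT against 42 in E112K clr6-1 and 48 in E112K.

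SPAC186.06, a gene described as a predicted protein of the endoplasmic reticulum unfolded protein response, was among the deepest falls. It had 2.10, 2.11 and 1.51 CPM in E112K clr6-1, 8.84, 10.6 and 9.11 CPM in E112K, and 37.7, 33.8 and 39.3 CPM in WT. The 3 groups did not overlap, and E112K clr6-1 was lowest. It fell by 4.27 on the log2 scale in E112K clr6-1 (edgeR, adjusted p = 3.85e-12) and by 1.96 in E112K (adjusted p = 8.15e-10) against WT, and by 2.31 between the mutants (adjusted p = 1.57e-08). Its neighbour gdt1 (SPAC186.05c), a homologue of human TMEM165 implicated in calcium transport, stood at 48.3 ± 1.27, 76.0 ± 2.12 and 151 ± 1.77 CPM in E112K clr6-1, E112K and WT and fell in the same order. The pyruvate decarboxylase gene pdc102 stood at 2.46 ± 0.316, 2.09 ± 0.904 and 6.18 ± 0.801 CPM and fell in both mutants, with no call between them.

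SPAC977 carried most of the RNA of the end genes. Its summed level was 2686 ± 66.1 CPM in E112K clr6-1, 3329.6 ± 52.4 CPM in E112K and 1639 ± 39.7 CPM in WT. Of its 16 genes, 13 rose, 2 fell and 1 did not pass in E112K clr6-1, and 14 rose and 2 fell in E112K. Between the mutants 2 rose, 9 fell and 5 did not pass. By coding sequence, 11 of the 16 have a near-identical copy.

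The highest rise of the cosmid was ayr2 (SPAC977.08), a predicted short chain dehydrogenase gene. It had 46.5, 49.5 and 53.4 CPM in E112K clr6-1, 26.3, 15.3 and 19.0 CPM in E112K, and 1.16, 1.26 and 0.277 CPM in WT. Again no groups overlapped. It rose 54.4-fold in E112K clr6-1 (edgeR, adjusted p = 3.07e-10), 22.0-fold in E112K (adjusted p = 2.24e-08) and 2.47-fold between the mutants (adjusted p = 6.56e-06). Its copy SPBC1348.09 has an identical coding sequence, and the sum of both stood at 58.3 ± 0.891, 26.9 ± 1.03 and 1.60 ± 0.550 CPM in E112K clr6-1, E112K and WT. The log2 fold changes of the sum against WT were 5.20 and 4.08.

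Several genes of SPAC977 that were more abundant in WT rose less than ayr2, though to unlike extents. SPAC977.14c, an aldo/keto reductase gene and the most abundant end gene per length, had 1743, 1627 and 1748 CPM in E112K clr6-1, 1964, 1890.3 and 1907 CPM in E112K, and 866, 893 and 892 CPM in WT. Both mutants lay above WT, and it rose 1.93-fold and 2.17-fold (edgeR, adjusted p = 6.23e-11 and 2.00e-11). The predicted phospholipase gene plb4 (SPAC977.09c) stood at 211 ± 5.41, 212 ± 8.68 and 102 ± 13.8 CPM in E112K clr6-1, E112K and WT. The sodium/proton antiporter gene sod2 stood at 187 ± 4.03, 296 ± 4.11 and 166 ± 5.26 CPM, a rise of 1.13-fold in E112K clr6-1 and 1.78-fold in E112K. The dihydroxyacetone kinase gene dak2, for glycerol use, stood at 142 ± 3.16, 182 ± 5.51 and 32.0 ± 2.26 CPM and rose 4.43-fold and 5.68-fold.

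SPAC977.17, a predicted water and glycerol channel gene next to dak2, rose in E112K alone. It had 90.5, 85.9 and 94.1 CPM in E112K clr6-1, 318, 305 and 301 CPM in E112K, and 91.0, 85.8 and 98.9 CPM in WT. The E112K clr6-1 and WT libraries overlapped, and all E112K libraries lay above them. It rose 3.35-fold in E112K against WT (edgeR, adjusted p = 3.18e-12), differed by -0.03 on the log2 scale in E112K clr6-1 against WT (SE 0.0509, adjusted p = 0.625), and fell by 1.77 in E112K clr6-1 against E112K (adjusted p = 6.70e-12). In the reference annotation it overlaps dak2, and the strand used in counting is not given, so reads of the shared stretch cannot be assigned with certainty.

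Genes that fell in SPAC977 were the 5Tm family gene ftm1 (SPAC977.01), the outermost of the cosmid, and the predicted L-asparaginase gene SPAC977.12. SPAC977.12 had 127, 132 and 119 CPM in E112K clr6-1, 168, 184 and 185.7 CPM in E112K, and 228, 238 and 234 CPM in WT. Transcripts of ftm1 had 35.0, 41.1 and 37.4 CPM in E112K clr6-1, 60.0, 60.7 and 62.8 CPM in E112K, and 74.9, 75.6 and 68.8 CPM in WT. For both genes the 3 groups did not overlap, with E112K clr6-1 lowest and WT highest. SPAC977.12 fell by 0.89 on the log2 scale in E112K clr6-1 and by 0.38 in E112K, and ftm1 by 0.95 and 0.26 (edgeR, adjusted p from 6.04e-10 to 0.00129 over these 4 values).

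Lower-level rises of the cosmid included ftm2 (SPAC977.02), the methyltransferase gene SPAC977.03, the truncated transporter gene SPAC977.04 and the DUF999 family gene SPAC977.06. They stood at 20.9 ± 1.01, 3.498 ± 1.10, 10.96 ± 1.19 and 14.3 ± 1.81 CPM in E112K clr6-1. In E112K they stood at 22.1 ± 1.58, 4.98 ± 0.343, 19.8 ± 0.685 and 7.49 ± 0.856 CPM, and in WT at 7.34 ± 0.330, 0.751 ± 0.121, 3.05 ± 0.497 and 1.39 ± 0.421 CPM. All 4 rose in both mutants. SPAC977.18, SPAC977.15 and the fluoride exporter gene fex1 (SPAC977.11) rose by 1.46-fold to 2.82-fold in both mutants. The rise of fex1 was not kept with its copy SPBPB8B6.06c added, since the sum had log2 fold changes of -0.16 in E112K clr6-1 (edgeR on the sums, adjusted p = 0.000414) and 0.07 in E112K (adjusted p = 0.0635). In these sums fex1 held 12.4 to 13.0% of the counts in E112K clr6-1, 8.44 to 10.9% in E112K and 5.61 to 7.89% in WT. SPAC977.05c rose in both as well, but in E112K its libraries had 5.98, 3.41 and 1.502 CPM against 1.56, 1.81 and 1.77 CPM in WT, which overlap. Its call in E112K (edgeR, adjusted p = 0.0314) was lost when any 1 of 5 libraries was left out, with an adjusted p of 0.0545 to 0.215.

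SPAC212, the outermost cosmid of the first end, held few transcripts. Its summed level was 93.3 ± 4.09 CPM in E112K clr6-1, 34.0 ± 1.33 CPM in E112K and 47.3 ± 1.80 CPM in WT. Of 6 tested genes, 4 rose, 1 fell and 1 did not pass in E112K clr6-1, and 3 rose, 1 fell and 2 did not pass in E112K. Between the mutants 4 rose and 2 fell.

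The RecQ-type helicase gene tlh1 (SPAC212.11), the outermost gene and a marker of telomeric silencing in fission yeast, had 0, 15 and 0 counts in E112K clr6-1, 33, 33 and 20 counts in E112K, and none in WT. All E112K libraries held counts, while in E112K clr6-1 all 15 counts came from library 2. Against a floor of 3 counts over the WT group, tlh1 was at least 30.4-fold higher in E112K (edgeR, adjusted p = 0.00114). It did not pass in E112K clr6-1 against WT (adjusted p = 0.0720), and the test gave an adjusted p of 0.0289 and 0.0378 without E112K clr6-1 replicates 1 and 3 and of 1 without replicate 2. The drop in E112K clr6-1 against E112K passed in edgeR (adjusted p = 0.0136) and not in DESeq2 (adjusted p = 0.353). Its copy tlh2, at a chromosome II end and 99.98% identical in coding sequence, held 276, 272 and 273 counts in E112K clr6-1, 422, 537 and 574 in E112K, and 284, 253 and 283 in WT. How reads shared by copies were divided is not given.

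SPAC212.06c, a truncated helicase gene related to tlh1, had 4.10, 3.59 and 4.01 CPM in E112K clr6-1, 2.01, 0.694 and 2.02 CPM in E112K, and 0.703, 1.10 and 1.16 CPM in WT. The E112K libraries overlapped WT, and the E112K clr6-1 libraries lay above both. It rose 3.96-fold in E112K clr6-1 against WT (edgeR, adjusted p = 6.78e-05) and 2.46-fold against E112K (adjusted p = 0.00129). The sum of SPAC212.06c, tlh1 and tlh2 rose by 0.30 on the log2 scale in E112K clr6-1 and by 1.04 in E112K against WT, and fell by 0.74 in E112K clr6-1 against E112K (edgeR on the sums, adjusted p = 0.00364, 4.17e-08 and 8.83e-07). In E112K against WT its log2 fold change of 0.69 did not pass (adjusted p = 0.112), and without E112K replicate 2 it was 1.03 and passed (adjusted p = 0.00608).

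SPAC212.04c, a DUF999 family gene with no near-identical copy, went in opposite directions in the mutants. It had 52.6, 52.6 and 49.9 CPM in E112K clr6-1, 9.45, 7.69 and 7.56 CPM in E112K, and 32.1, 30.7 and 31.8 CPM in WT. The 3 groups did not overlap, with E112K clr6-1 highest and E112K lowest. It rose 1.64-fold in E112K clr6-1 (edgeR, adjusted p = 1.77e-07) and fell by 1.94 on the log2 scale in E112K (adjusted p = 1.47e-10) against WT, and E112K clr6-1 exceeded E112K 6.30-fold (adjusted p = 9.16e-12). This was the highest rise between the mutants among end genes that had counts in every library.

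The GPI-anchored protein gene SPAC212.08c showed the reverse order at a few counts per library. It had 4, 7 and 6 counts in E112K clr6-1, 28, 31 and 24 in E112K, and 14, 17 and 8 in WT. It rose 2.25-fold in E112K (edgeR, adjusted p = 0.00848) and fell by 1.14 on the log2 scale in E112K clr6-1 (adjusted p = 0.0437) against WT. The fall was lost when any 1 of 5 libraries was left out (adjusted p from 0.0508 to 0.160). Summed with SPAC212.12 and SPAC750.07c it differed by 0.51 on the log2 scale in E112K, which did not pass, and fell by 1.57 in E112K clr6-1 (edgeR on the sums, adjusted p = 0.111 and 0.00141). Of the remaining genes, SPAC212.01c stood at 35.3 ± 2.35, 19.7 ± 1.22 and 12.7 ± 1.67 CPM in E112K clr6-1, E112K and WT and rose in both mutants as counted singly. SPAC212.03 stood near 1 CPM, at 1.48 ± 0.429, 0.700 ± 0.0297 and 0.840 ± 0.178 CPM, and its rise in E112K clr6-1 (adjusted p = 0.0363) was also lost without 1 of 4 libraries, with an adjusted p of 0.0803 to 0.139.

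**Figure D3:**
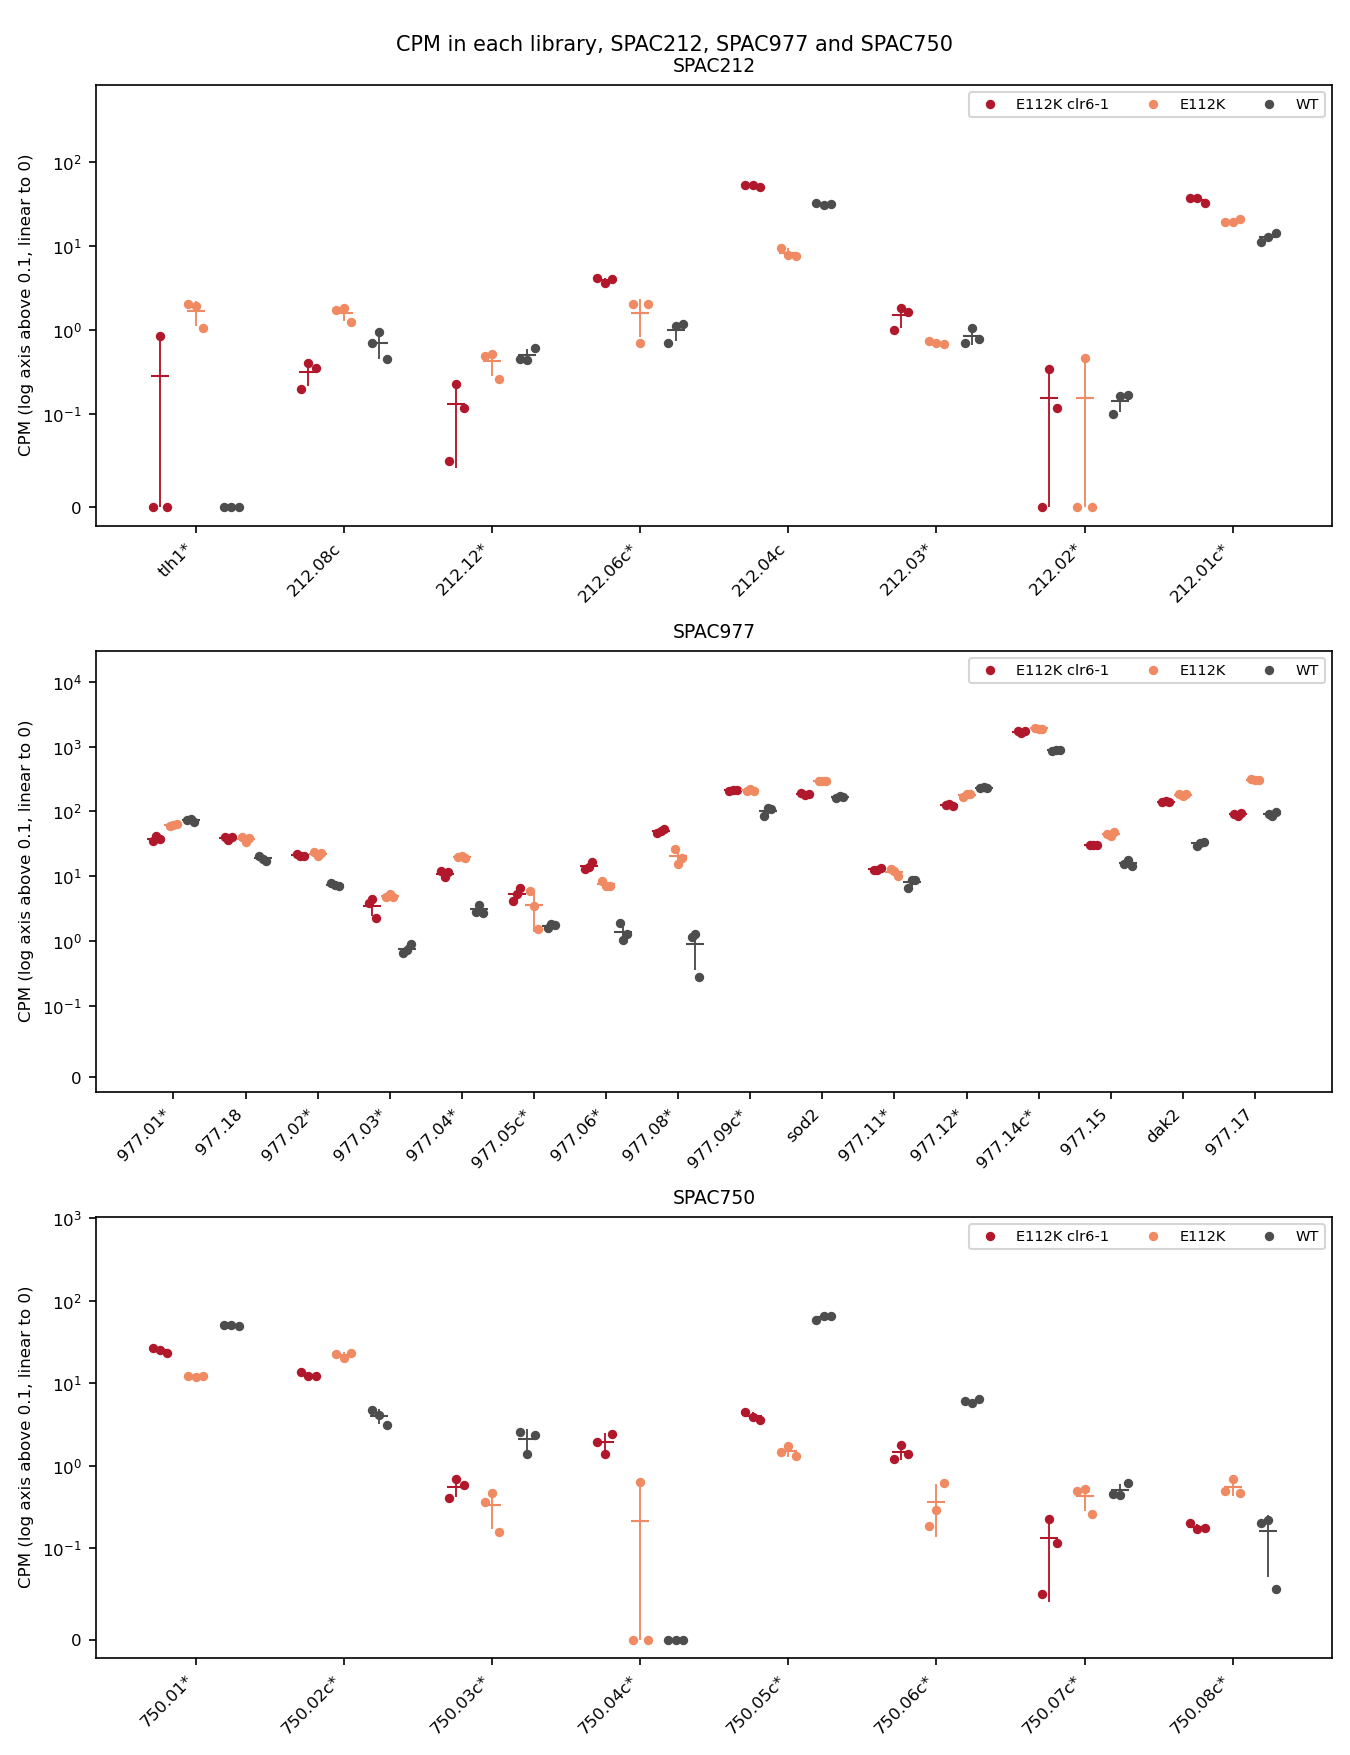
CPM of each gene of SPAC212, SPAC977 and SPAC750 in the 9 libraries, drawn on an axis logarithmic above 0.1 and linear to 0. Points are libraries, dashes with bars are means ± SD, and each gene shows E112K clr6-1, E112K and WT from left to right. In SPAC212 the 3 groups change order from gene to gene, in SPAC977 most mutant libraries lie above WT, and in SPAC750 WT is highest for SPAC750.01, SPAC750.03c, SPAC750.05c and SPAC750.06c.

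SPAC750, the outermost cosmid of the last end, had more genes that fell than rose against WT in both mutants when copies were counted singly. Its summed level was 45.9 ± 2.21 CPM in E112K clr6-1, 37.6 ± 0.944 CPM in E112K and 126 ± 2.69 CPM in WT. Of 6 tested genes, 2 rose and 4 fell in E112K clr6-1, and 1 rose, 4 fell and 1 did not pass in E112K. Between the mutants 4 rose, 1 fell and 1 did not pass. Of the 4 that rose, SPAC750.01, SPAC750.04c and SPAC750.05c fell between the mutants as summed families, with log2 fold changes of -0.16, -0.19 and -0.99. The family of SPAC750.06c rose by 0.49. All 8 genes have a near-identical copy, and of the 4 that fell in both mutants only SPAC750.05c also fell in both as a summed family.

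The 5Tm family gene ftm4 (SPAC750.05c) had 4.50, 3.93 and 3.60 CPM in E112K clr6-1, 1.46, 1.73 and 1.29 CPM in E112K, and 57.7, 64.5 and 65.7 CPM in WT. No group overlapped another, and both mutants lay far below WT. It fell by 3.96 on the log2 scale in E112K clr6-1 (edgeR, adjusted p = 5.57e-13) and fell by 5.39 in E112K (adjusted p = 2.19e-13) against WT, and E112K clr6-1 exceeded E112K 2.69-fold (adjusted p = 5.93e-06). The neighbouring family gene ftm3 (SPAC750.04c) had 39, 24 and 42 counts in E112K clr6-1, 0, 11 and 0 counts in E112K, and none in WT. Only 1 E112K library held counts, and all E112K clr6-1 libraries did. It was at least 35.9-fold higher in E112K clr6-1 than a floor of 3 counts over the WT group (edgeR, adjusted p = 0.000239) and did not pass in E112K (adjusted p = 0.0839). Its coding sequence is identical to that of ftm2. In E112K clr6-1 it held 5.47 to 9.72% of its family's counts. Against WT the summed family rose 2.47-fold in E112K clr6-1 and 2.83-fold in E112K (edgeR on the sums, adjusted p = 1.58e-08 and 5.36e-09). The bound for ftm3 alone therefore depends on how reads of copies were divided. The rise of ftm3 in E112K clr6-1 against E112K passed in edgeR (adjusted p = 0.00229) and not in DESeq2 (adjusted p = 0.210).

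The predicted transporter gene SPAC750.02c had 13.7, 12.2 and 12.2 CPM in E112K clr6-1, 22.9, 20.4 and 23.0 CPM in E112K, and 4.72, 4.11 and 3.10 CPM in WT. The 3 groups did not overlap, with E112K highest. It rose 3.18-fold in E112K clr6-1 (edgeR, adjusted p = 7.53e-08) and 5.52-fold in E112K (adjusted p = 1.25e-09) against WT. The aldo/keto reductase gene SPAC750.01 stood at 25.0 ± 1.41, 12.1 ± 0.311 and 50.1 ± 0.783 CPM in E112K clr6-1, E112K and WT. The DUF999 family gene SPAC750.06c stood at 1.45 ± 0.287, 0.364 ± 0.229 and 6.05 ± 0.333 CPM, and the methyltransferase gene SPAC750.03c at 0.554 ± 0.143, 0.328 ± 0.157 and 2.10 ± 0.642 CPM. As counted singly these 3 fell in both mutants. With copies summed the direction turned or the call was lost. The log2 fold changes in E112K clr6-1 and E112K against WT were 0.89 and 1.05 for the family of SPAC750.01, 0.64 and 1.68 for that of SPAC750.03c, and 0.42 and -0.06 for that of SPAC750.06c, of which the last did not pass (edgeR on the sums, adjusted p = 0.139).

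The 4 genes without a test were near the limit of detection. SPAC212.12 and SPAC750.07c had the same counts in every library, 1, 4 and 2 in E112K clr6-1, 8, 9 and 5 in E112K, and 9, 8 and 11 in WT, and their coding sequences are identical. SPAC212.02 had 8 counts over each group. SPAC750.08c, a partial malic enzyme gene, had 10 counts over E112K clr6-1, 29 over E112K and 9 over WT.

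**Figure D4:**
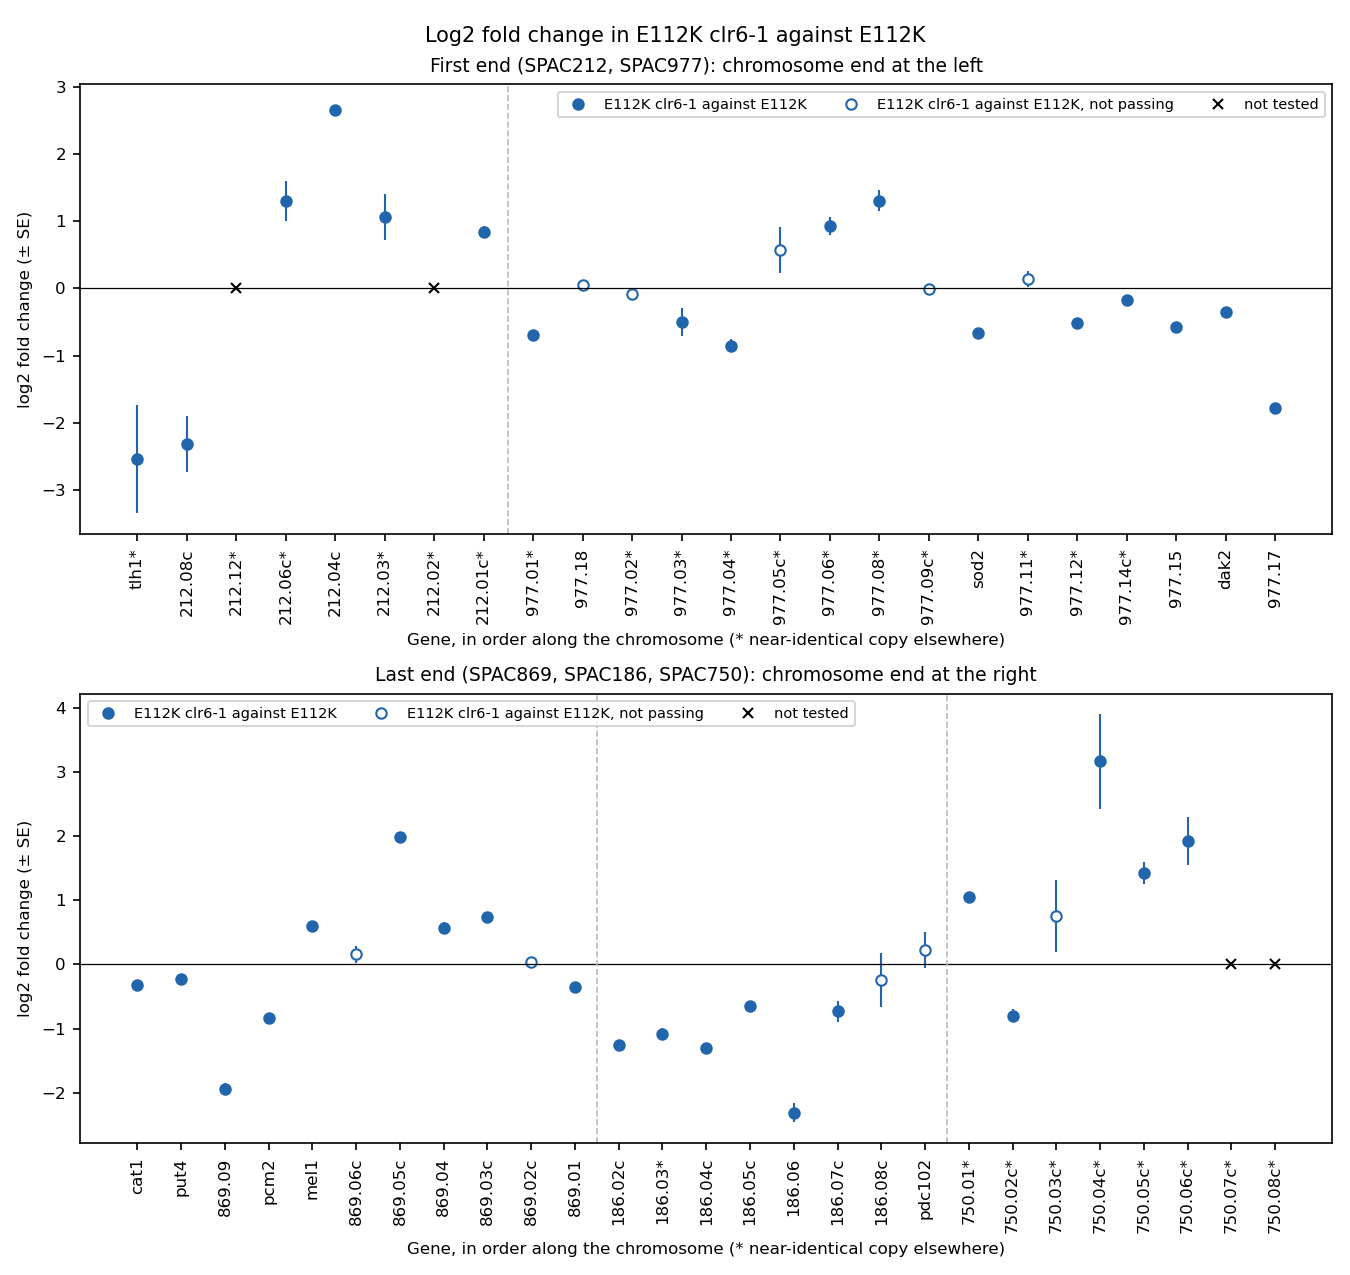
Log2 fold change in E112K clr6-1 against E112K (± SE) of the end genes in chromosome order, the first end above and the last end below. Filled points passed edgeR's test, open points did not, and crosses were not tested. All 6 called genes of SPAC186 lie below 0, 4 of 5 called genes of SPAC750 lie above 0, and the highest point among genes counted in every library is SPAC212.04c at 2.66. Copies are counted singly.

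By order of levels, 7 end genes rose over WT in E112K and rose further in E112K clr6-1. They are SPAC212.01c, SPAC977.06, ayr2, SPAC869.03c, SPAC869.04, sul2 and mel1. Another 14 rose in both mutants and were lower in E112K clr6-1 than in E112K, among them SPAC977.14c, sod2, dak2, SPAC186.02c, pcm2 and SPAC869.09. A further 8 rose in both with no call between the mutants, among them yhb1, plb4 and hry1. Of the genes that fell in both, 5 were lower still in E112K clr6-1 (ftm1, SPAC977.12, SPAC186.06, gdt1 and cat1), and 3 were higher there than in E112K (SPAC750.06c, ftm4 and SPAC750.01). The patterns count copies singly. Summed with their copies, ftm4 and SPAC750.01 had log2 fold changes of -0.99 and -0.16 between the mutants. Shares of these patterns over all tested genes were not counted, and 76.5 to 83.7% of those genes passed each comparison.

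Near-identical copies bear on how single genes of the ends can be read. By coding sequence in the reference annotation, 26 of the 51 genes match another gene at 90% identity or more over at least 80% of their length. With these matches the counted genes form 17 families that include 23 genes elsewhere. The counting could divide reads of such genes by rules that are not given. Summed over each family, 12 families rose and 5 fell in E112K clr6-1 against WT, 11 rose, 2 fell and 4 did not pass in E112K, and 4 rose, 11 fell and 2 did not pass between the mutants. In the same fit 4266, 3895 and 4022 of 5093 features passed in these comparisons, so most features passed. By direction 2127 features rose and 2139 fell in E112K clr6-1, 1911 rose and 1984 fell in E112K, and 2053 rose and 1969 fell between the mutants. The end genes without a near-identical copy by this criterion had a median log2 fold change of 2.15 in E112K clr6-1 and 2.41 in E112K. They include SPAC212.08c, which lies in a family as a match of other end genes. Tested end genes in no family, which this bears on least, had medians of 2.35 and 2.46.

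In 7 families copies lie at both ends of chromosome I, and in 6 a copy at each end was tested. In 3 of these pairs the first-end copy rose and the last-end copy fell in both mutants against WT. They are SPAC212.01c with SPAC750.06c (99.8% identity), SPAC977.14c with SPAC750.01 (93.7%) and SPAC977.03 with SPAC750.03c (99.3%). The transporter pair SPAC977.04 and SPAC750.02c, identical in coding sequence, rose together in both mutants. The pair ftm1 and ftm4 (99.9%) fell together. Of the identical pair ftm2 and ftm3, both rose in E112K clr6-1, and ftm2 alone passed in E112K.

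Sums could differ from their single copies. The family of ftm4 also holds ftm1, SPBC1348.02 and SPBPB2B2.19c and stood at 216 ± 0.897 CPM in E112K clr6-1, 429.5 ± 9.72 CPM in E112K and 734 ± 21.0 CPM in WT. As a family it fell by 1.76 on the log2 scale in E112K clr6-1 and by 0.77 in E112K (edgeR on the sums, adjusted p = 4.56e-14 and 1.08e-10), and it fell by 0.99 between the mutants, where ftm4 itself rose. The share of ftm4 in these counts was 1.66 to 2.08% in E112K clr6-1, 0.296 to 0.414% in E112K and 8.01 to 9.07% in WT. The sum of SPAC977.14c and SPAC750.01 rose, with log2 fold changes of 0.89 and 1.05. The sum of SPAC212.01c, SPAC750.06c and 3 copies elsewhere rose by 0.42 in E112K clr6-1 and differed by -0.06 in E112K, without passing (adjusted p = 0.139).

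**Figure D5:**
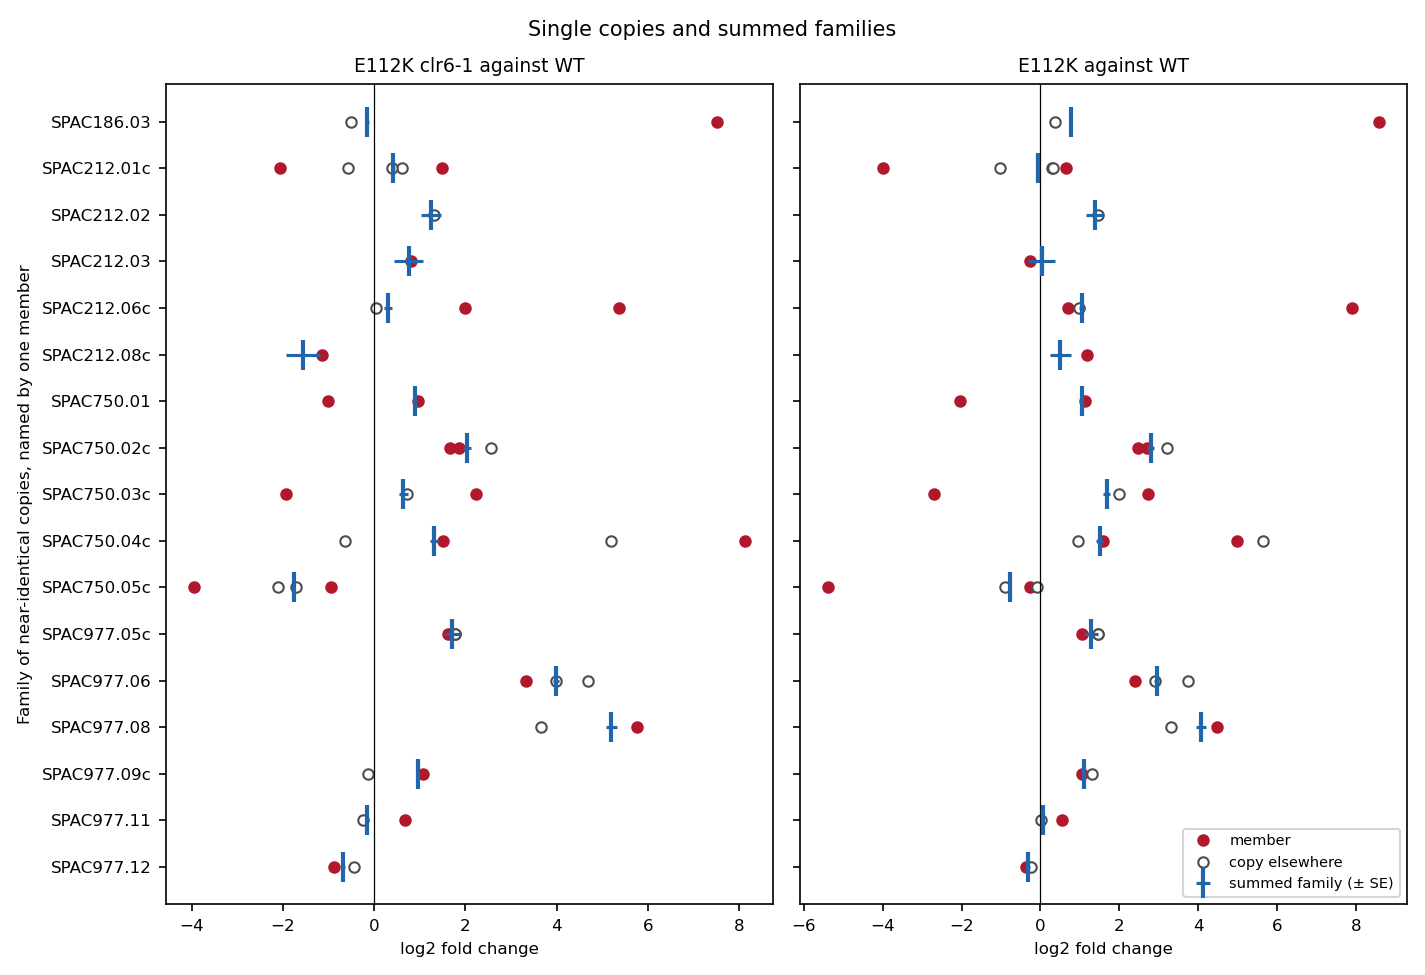
Log2 fold change against WT in E112K clr6-1 (left) and E112K (right) for each family of near-identical copies, named by 1 of its end genes. Red points are end genes, open points are copies elsewhere and blue marks are the summed family ± SE. End genes of the families of SPAC212.01c, SPAC750.01 and SPAC750.03c lie on both sides of 0, and the end gene SPAC186.03 lies far above its family's sum.

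Genes of the chromosome II ends include copies of those above. Of 60 tested genes of 7 cosmid prefixes there, 38 rose and 14 fell in E112K clr6-1 against WT, 43 rose and 9 fell in E112K, and 20 rose and 26 fell between the mutants. Over all tested genes 83.7, 76.5 and 78.8% passed in these comparisons. By at least 2-fold 28 rose and 5 fell in E112K clr6-1, 31 and 3 in E112K, and 4 and 7 between the mutants. Over all tested genes these shares were 10.1 and 3.24%, 7.17 and 2.11%, and 4.47 and 2.83%. Median log2 fold changes were 0.84, 1.03 and -0.04, against 1.51, 1.59 and -0.17 for the chromosome I ends. Since copies share reads, neither set is independent of the other.

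Transcripts of 29 genes for telomere proteins, heterochromatin factors, deacetylases and RNA interference were listed beside the end genes. In E112K clr6-1 against WT 15 rose and 11 fell, in E112K 9 rose and 8 fell, and between the mutants 9 rose and 10 fell. Over all tested genes 83.7, 76.5 and 78.8% passed in these comparisons, so 26, 17 and 19 of 29 passing is near or below the background. Apart from clr2, no change reached 2-fold. The SHREC subunit gene clr2 stood at 42.4 ± 1.91 CPM in E112K clr6-1, 90.8 ± 3.03 CPM in E112K and 90.5 ± 1.90 CPM in WT, and fell by 1.09 on the log2 scale in E112K clr6-1 against WT (edgeR, adjusted p = 1.17e-10). Transcripts of swi6 fell by 0.57 and those of clr4 rose 1.59-fold in that comparison (adjusted p = 1.53e-09 and 1.45e-08). The telomere protein gene taz1 rose 1.40-fold in E112K against WT and fell by 0.75 on the log2 scale in E112K clr6-1 against E112K (adjusted p = 4.79e-08 and 8.43e-10). Their part in the changes of the end genes was not tested.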

How the data were processed

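Whole-cell total RNA was extracted with Trizol, enriched for mRNA with oligo(dT) and sequenced from 9 libraries, per the labels' protocols. Tools listed without a role, per the submitters' processing notes, were Bowtie2, DESeq2, HISAT2, RSEM, StringTie and fastp. The sources used here do not give the genome build, annotation, strand or handling of reads shared by copies. The deposited tables give raw counts per gene and FPKM per library, with the authors' log2 fold changes and p-values for each mutant against WT, per the file headers. FPKM served only to compare levels between genes.

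One edgeR 4.0.16 model (R 4.3.3) took the counts of the 9 libraries after TMM scaling and filterByExpr, which kept 5119 of 5212 genes. Each pair of genotypes was tested by the quasi-likelihood test, with Benjamini-Hochberg adjustment over all tested genes and a threshold of 0.05. The scripts were tested on simulated data. All 51 identifiers matched the RefSeq annotation of ASM294v3, which was used for names, order, overlaps and coding-sequence identity (blastn 2.17.0) and for no coordinates. In it 32 end genes overlap a non-coding RNA, and reads of the 2 cannot be told apart without strand. Copies were compared by coding sequence instead of protein, and the planned promoter motif search was not run.

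The members and lists were chosen with earlier results of these data known. Any member could be named. Per cosmid and comparison, the called genes with the highest rise and deepest fall at 1 CPM or more in the higher group got values for every library, as did genes without a count in a group. Among silencing factors, up to 4 with the lowest adjusted p per comparison could be named. Exact counting intervals, at 95%, and floors of 3 counts cover counting error only. Deviations of same-numbered repeats had correlations from -0.17 to 0.18. The labels do not say what a repeat number marks, so no block was used. Alternatives were DESeq2 1.42.0, RLE scaling, library size alone, no count filter, 2 groups per fit, a replicate block, each library left out, a 2-fold minimum and removal of copies. Summing copies was chosen after seeing the data.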

Additional observations from a re-analysis of the deposited data

How the results depend on the processing

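Leaving aside the 2-fold minimum and the summing of copies, of 1763 values of single end genes under the other settings 1722 kept their direction and side of the threshold, 23 lost the call, 6 gained it and 12 changed sign. Both 1763 and 1722 include 25 values per comparison from the removal of copies. Those values came from the same fit and could not change. Leaving out each library in turn gave, for E112K clr6-1 against WT, 32 to 34 rises, 11 to 12 falls and a median log2 fold change of 1.46 to 1.55. For E112K against WT it gave 31 to 33 rises, 11 falls each time and medians of 1.53 to 1.60. For E112K clr6-1 against E112K it gave 13 to 15 rises, 22 to 23 falls and medians of -0.19 to -0.09. With the replicate number as a block the counts were again 33 and 12, 32 and 11, and 14 and 23, and the numbers do not pair the samples. Without near-identical copies there were 18 rises, 6 falls and a median of 2.15 in E112K clr6-1 against WT, 19, 5 and 2.41 in E112K against WT, and 5, 15 and -0.35 between the mutants, since fewer genes were counted. SPAC212.08c, which lies in a copy family, is still among these genes. A 2-fold minimum ended 10 calls in E112K clr6-1 against WT, 8 in E112K against WT and 20 between the mutants. With it 7 genes fell in E112K against WT, and 9 rose and 8 fell between the mutants. The median in E112K clr6-1 against WT was 1.11 with DESeq2 and 1.10 without the count filter. With copies summed it was 1.04, 7 features fell in E112K against WT and 9 rose between the mutants. With copies summed these single genes took their family's sign. In E112K against WT the values were 0.028 for SPAC212.03, -0.065 for SPAC212.01c, 1.68 for SPAC750.03c and 1.05 for SPAC750.01. In E112K clr6-1 against WT they were -0.16 for SPAC977.11, 0.42 for SPAC750.06c, 0.64 for SPAC750.03c, 0.89 for SPAC750.01 and -0.16 for SPAC186.03. Between the mutants they were -0.74 for SPAC212.06c, -0.23 for SPAC977.11, -0.99 for SPAC750.05c, -0.19 for SPAC750.04c, -1.04 for SPAC750.03c and -0.16 for SPAC750.01. The other changes of sign were in values near 0 or resting on 1 library, and their cause was not tested. Leaving out 1 library at a time moved the log2 fold change in E112K against WT from 0 to 5.59 for SPAC750.04c (0 without E112K replicate 2) and from -0.063 to 0.021 for put4. In E112K clr6-1 against WT the range was 0 to 5.98 for tlh1 (0 without E112K clr6-1 replicate 2) and -0.070 to 0.032 for SPAC977.17. Between the mutants it was -0.022 to 0.12 for SPAC977.18, -0.018 to 0.039 for SPAC977.09c and -0.0047 to 0.60 for pdc102. There SPAC977.09c was also at 0.0046 without the count filter, 0.0012 with 2 groups per fit and 0.00069 with the block. SPAC750.04c passed in E112K without E112K replicate 1 or 3 (edgeR, adjusted p = 0.0451 and 0.0399). The fall of SPAC977.03 between the mutants (adjusted p = 0.0422) was lost with 2 groups per fit (0.0543) and without any 1 of 5 libraries (0.0548 to 0.151). The rise of SPAC212.03 between the mutants (adjusted p = 0.0127) was lost without E112K clr6-1 replicate 2 (0.0563).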

Other observations

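Copies of the end genes at the chromosome II ends gave further values. The helicase gene tlh2 stood at 15.0 ± 1.10 CPM in E112K clr6-1, 28.8 ± 2.77 CPM in E112K and 14.6 ± 0.942 CPM in WT (SD, n = 3). It rose in E112K against WT by 0.98 on the log2 scale (edgeR, adjusted p = 3.41e-07) and differed by 0.04 in E112K clr6-1 against WT, which did not pass (adjusted p = 0.702). SPBPB2B2.19c, a copy of ftm1 and ftm4, had 2084, 1068 and 2936 counts in the WT libraries, and SPBC1348.09, a copy of ayr2, had 0, 3 and 35. SPBPB2B2.16c, identical to SPAC977.04 in coding sequence, had no count in any library.

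In the authors' deposited table, the end genes called against WT were 27 upward and 7 downward for E112K clr6-1 and 28 upward and 8 downward for E112K, at a false discovery rate under 0.05 and a change of at least 2-fold.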
